A study of Chrysanthemum x morifolium with 4 samples.

Results

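The leaves described here passed through both, one or neither of a pair of cold treatments, and the question is whether freezing after acclimation gave the transcript levels that the treatments given singly would predict. Leaf RNA of Chrysanthemum x morifolium, cultivar Jinba, was sequenced in 4 libraries; the plants came from tissue-cultured seedlings and are labelled as 20 days old. The acclimated and frozen leaves had 24 h at 4 °C and then 4 h at -4 °C. The acclimated leaves had 24 h at 4 °C with no freezing, the leaves frozen alone had 4 h at -4 °C with no acclimation, and the control leaves stayed at the normal condition. The leaves of 3 replicates were mixed for each library, so there was 1 library per treatment. The variation among plants is therefore unknown, and no departure below was tested or has a p-value. The treatments differed in length as well as in temperature, and the effects of these cannot be told apart.

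Cold acclimation is the gain in freezing tolerance that many temperate plants make during a spell of low temperature above freezing. It is known for wide changes in leaf transcripts, among them transcription factors that respond to cold, protective proteins, and enzymes of sugar and membrane lipid metabolism. Freezing adds ice in the spaces between cells, which draws water out of them, and so brings signals of drought and of injury together with those of cold. A transcript that answers to both treatments can reach a ceiling or a floor, or can be driven by one treatment only in the absence of the other. A design with both, one and neither treatment is the usual way to see this.

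The measure used was the departure of the acclimated and frozen level from a product. If the treatments acted independently as fold changes, the level after both would equal the control level times the acclimation ratio (acclimated over control) times the ratio of freezing alone (frozen over control). The log2 of the measured level over this product is the departure. It equals the log2 freezing ratio after acclimation minus the log2 freezing ratio without it, and equally the acclimation ratio in frozen leaves minus that in unfrozen leaves. A departure of 0 means that the product held, a positive value that the acclimated and frozen level lay above it, and a negative value that it lay below.

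The unit of description was the unigene, a transcript pieced together from the reads. The table listed 93837 unigenes, and the 23772 with 100 or more counts summed over the 4 libraries were taken, which held 98.1% to 98.6% of the counts of each library. No unigene carries a gene name in the table, so sets are described by level and response, and identifiers are given for 4 unigenes only. Libraries held 14024558 counts (acclimated and frozen), 15179341 counts (acclimated), 14345704 counts (frozen alone) and 15781435 counts (control). They were scaled by TMM, with factors of 0.928, 0.976, 1.11 and 0.993 in the same order of libraries, so the unacclimated frozen library stood farthest from 1. Each departure has a 95% interval from the counting variance of its 4 counts, and intervals of this kind cover counting error only. Of the unigenes taken, 13, 58, 5 and 89 had a count of 0 in the acclimated and frozen, acclimated, frozen alone and control library. With 3 counts as the limit, the highest level compatible with a count of 0 was between 0.190 and 0.214 CPM (counts scaled by library total) among the libraries. At the threshold itself, the 63 unigenes with exactly 100 counts had departures with quartiles of -0.77 and 0.45 and a median standard error of 0.62, and 3 of them were called by the rule given next. The 59 unigenes with 99 counts, left out, had quartiles of -0.73 and 1.23 and a median standard error of 0.65, and 2 of them would have been called.

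Most unigenes lay near the product. The median departure was -0.09 (log2), the quartiles were -0.52 and 0.34, and 19132 unigenes (80.5%) departed by less than 2-fold in either direction. In 17719 unigenes neither treatment alone had a ratio to control with its interval beyond 2-fold. Nearness to the product says little there about how the treatments combine. The interquartile range of 0.86 was wider than counting alone would make it, since the median counting standard error of a departure was 0.24. Unigenes were called where the whole interval lay beyond 2-fold. By this rule 708 unigenes were above the product (2.98% of 23772) and 946 below it (3.98%). Departures were thus found in both directions, and the largest were below. The extremes were 8.43 above and -11.14 below, as point values. Departures of such size can rest on very few counts, as for the unigene at -10.82 described below, with 2 control counts. An interval wholly beyond 8-fold was found for 35 unigenes above (0.147%) and 103 below (0.433%). Beyond 4-fold the counts were 126 above (0.530%) and 271 below (1.14%). Among called unigenes the median departure was 2.02 above and -2.24 below. Both medians were the same to 2 decimals with counts of 0 set to the limit of 3 counts. Only 6 of the 708 and 14 of the 946 had a count of 0 in some library, so this setting could hardly move them. These calls rest on counting error alone. If each library also carried an assumed spread of 20%, 221 would be called above and 393 below, and with an assumed 40% 55 above and 149 below.

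**Figure D1:**
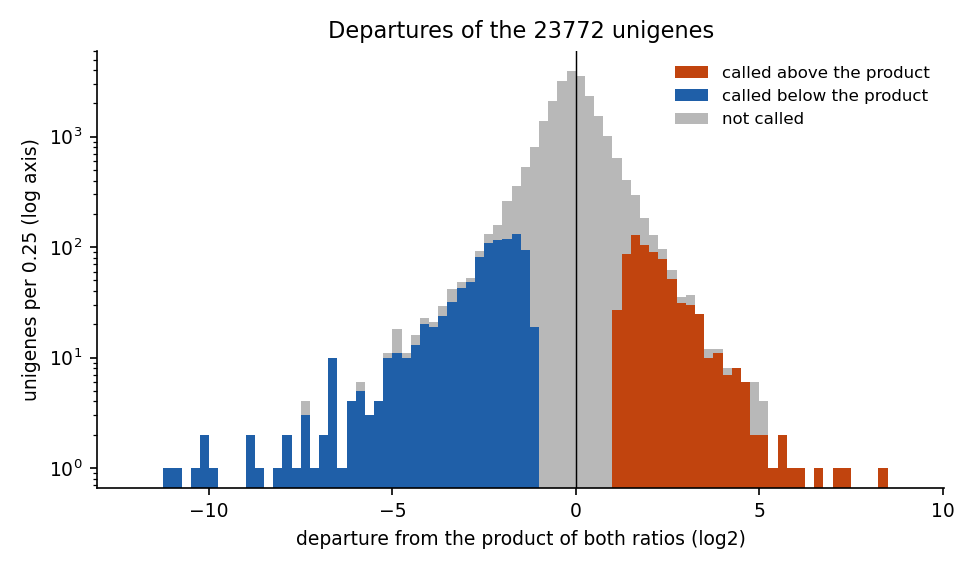
Number of unigenes (log axis, per 0.25) by departure of the acclimated and frozen level from the product of both ratios (log2), stacked as called above the product, called below it and not called. The bulk centres on -0.09 with quartiles of -0.52 and 0.34. As point values, the tail of called unigenes reaches -11.14 below but 8.43 above.

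Which direction was the more frequent depended on how the libraries were scaled, since another scaling adds the same amount to every departure. Total counts moved all departures by -0.24 relative to TMM and gave 476 above and 1351 below, so that 73.9% of calls were below, against 57.2% with TMM. Median-of-ratios factors moved them by 0.10 and gave 846 above and 822 below, with 49.3% below. The median departure itself was -0.32 with total counts and 0.01 with median-of-ratios factors. After centring the TMM departures on their own median the share was 50.1%. The balance of calls was therefore not fixed by these data, whereas a shift of this size is small beside the larger departures. Called under TMM and each of the 3 other scalings (total counts, median-of-ratios and upper-quartile factors) were 476 unigenes above and 822 below. As each scaling moves every departure alike, this overlap had to equal the smallest count in each direction.

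The plot of one freezing ratio against the other shows where these unigenes lie. Unigenes on the diagonal met the product. Of the 946 unigenes called below, 258 had a higher level with freezing after acclimation and 889 had a higher level with freezing alone. Of the 708 called above, 596 had a higher level with freezing after acclimation and 221 with freezing alone. The call itself favours this contrast between the states.

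**Figure D2:**
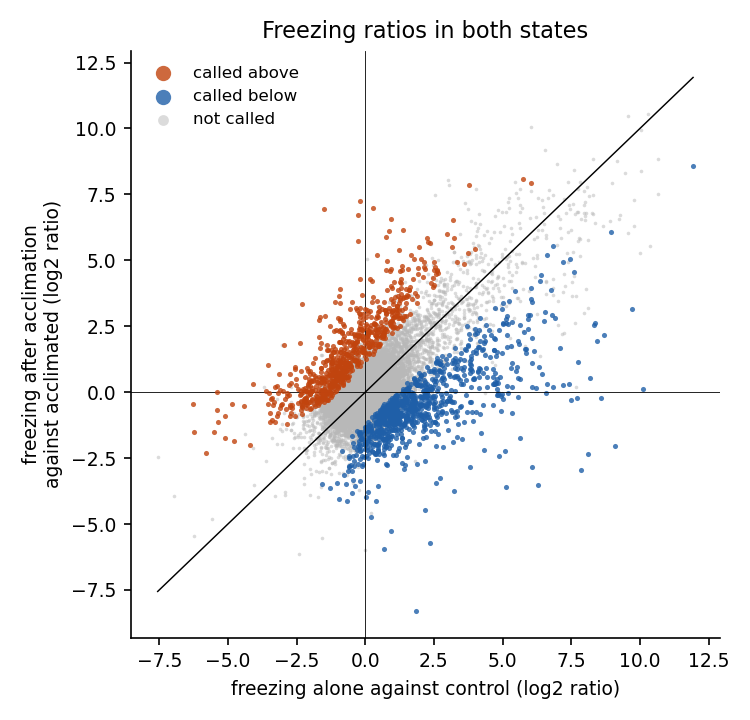
Log2 freezing ratio after acclimation (acclimated and frozen over acclimated, y axis) against that without acclimation (frozen alone over control, x axis), 1 point per unigene, with the diagonal where both are equal. The 708 unigenes called above lie over the diagonal and the 946 called below lie under it, by construction of the call, and the 2 axes share no library.

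The levels show what kind of unigene stood behind each direction. The 946 unigenes called below were low in the control: their median was 9.07 FPKM in the acclimated and frozen library, 13.4 FPKM in the acclimated, 15.0 FPKM in the frozen alone and 3.71 FPKM in the control (FPKM is a level per length of unigene and per total count of the library, so FPKM values are not scaled by TMM as the ratios are). In 697 of them (73.7%) the control was the lowest library, against 29.7% of all 23772. The highest library was the acclimated one for 458 (48.4%, against 28.2% of all) and the frozen alone one for 359 (37.9%, against 19.2%). The acclimated and frozen one was highest for only 115 (12.2%, against 22.3%). Most of these transcripts were lower in the control than after any of the cold treatments, and few peaked in the combination. The call favours such an order, since a low level in the control or after both treatments lowers the departure. These shares therefore describe the called unigenes only. Their share of all counts was 6.28% in the acclimated and frozen library, 6.79% in the acclimated, 6.53% in the frozen alone and 1.79% in the control.

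The 708 unigenes called above were of another kind, and were high in the control or in the combination. Their median was 17.4 FPKM in the acclimated and frozen library, 5.59 FPKM in the acclimated, 12.9 FPKM in the frozen alone and 15.8 FPKM in the control. The highest library was the control for 346 of them (48.9%, against 30.3% of all 23772) and the acclimated and frozen one for 311 (43.9%, against 22.3%). The lowest was the acclimated one for 450 (63.6%, against 19.4% of all 23772) and the frozen alone one for 196 (27.7%, against 19.3%). Their share of all counts was 7.54% in the acclimated and frozen library, 6.41% in the acclimated, 5.79% in the frozen alone and 15.7% in the control. The rule favours such orders, because a departure adds the acclimated and frozen level to the control level and takes away the other two, so these counts describe the called unigenes and support nothing further.

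**Figure D3:**
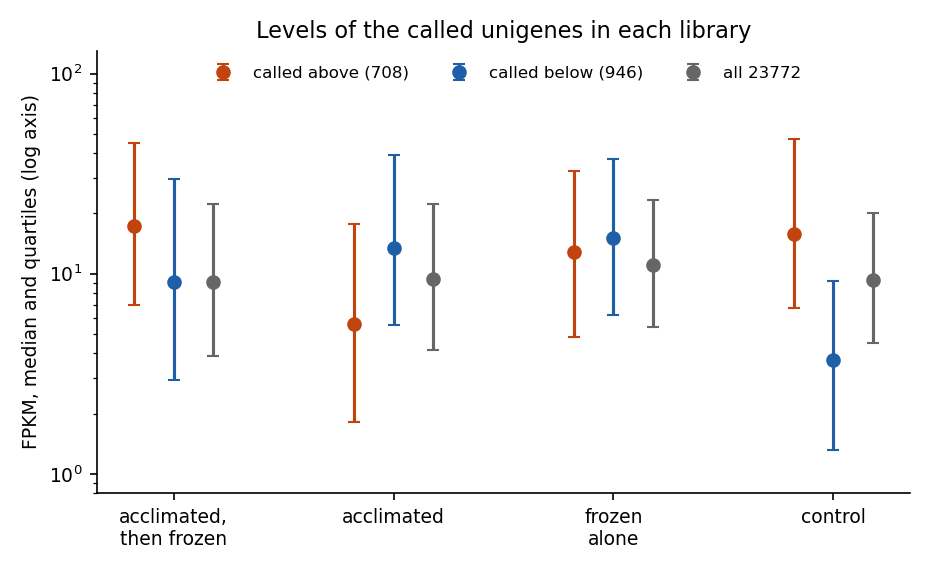
FPKM (log axis) in each library for unigenes called above the product, called below it and all unigenes taken, as medians (points) and quartiles (bars). Unigenes called above have their lowest median, 5.59 FPKM, in the acclimated library, and those called below have theirs, 3.71 FPKM, in the control.

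A unigene can depart because 1 library stands apart from the other 3. This was counted where all 3 ratios of that library to the others had an exact 95% interval (Clopper-Pearson, from the share of counts) beyond 2-fold. The commonest such form was a low control: 505 unigenes were lower in the control than in every cold-treated library (2.12%), of which 312 were called below the product and 2 above. These are transcripts that were higher after any of the cold treatments. Next came 409 unigenes higher in the acclimated and frozen library than in each other (1.72%), of which 102 were called above and 19 below, so most of them met neither limit. The median departure of these 409 was 0.90. Of all unigenes taken, 2.98% were called above and 3.98% below.

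Single treatments also set some unigenes apart. Higher in leaves frozen alone than in each other library were 145 unigenes (0.61%), 89 of them called below, and higher in acclimated leaves than in each other library were 140 (0.589%), also with 89 called below. Lower in acclimated leaves than in each other library were 189 (0.795%), 131 of them called above, with a median departure of 2.27. Lower in leaves frozen alone than in each other library were 85 (0.358%), with 63 called above. The control was higher than each other library for 253 (1.06%), with 109 called above. The acclimated and frozen library was lower than each other for 100 (0.421%), with 43 called below. In 22106 unigenes no library stood apart in this way, yet 318 of these were called above and 449 below. Of all unigenes taken, 2.98% were called above and 3.98% below. In 256 of those 449, the acclimated and frozen level and the control level both lay under the acclimated and the frozen alone level. That order was found in 1788 of the 22106 (7.52% of all unigenes taken). In 144 of those 318 both lay over them, an order found in 1009 of the 22106 (4.24%). Each order fixes the sign of the departure, so these counts describe the calls only.

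Unigenes were then grouped by what each treatment did alone, without use of the acclimated and frozen library. Against the control, 2862 unigenes were called higher after acclimation (12.0%) and 1981 lower (8.33%), and 1565 were called higher after freezing alone (6.58%) and 521 lower (2.19%), by the exact interval of the ratio lying beyond 2-fold. The groups and the departure share the acclimated, the frozen alone and the control library. A control count that is low by chance places a unigene among the higher ones and also lowers its departure. So does an acclimated or frozen alone count that is high by chance. The departures of the groups are therefore descriptions, and the level after both treatments is given beside the level after each.

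Unigenes higher after each treatment alone came out lower than the product after both. These 558 unigenes had a median of 29.4 FPKM in acclimated and frozen leaves, 16.0 FPKM in acclimated leaves, 21.9 FPKM in leaves frozen alone and 2.28 FPKM in the control. The median log2 ratio to control was 3.62 after both treatments, 2.80 after acclimation and 2.76 after freezing alone, where the product gave 5.64. The median departure was -2.22 (quartiles -3.36 and -1.30), or -2.13 with counts of 0 at the limit. Of the 558, 365 (65.4%) were called below and 2 (0.358%) above, against 3.98% and 2.98% of all unigenes taken. The level after both treatments exceeded both single levels in 306 unigenes (54.8%), lay between them in 160 and was under both in 92. The median log2 ratio of the level after both to the higher of the single levels was 0.16. In 505 of the 558 the level after both was called higher than the control, as were 15.2% of all unigenes taken.

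Unigenes lower after each treatment alone came out less low than the product after both. These 261 unigenes had a median of 4.06 FPKM in acclimated and frozen leaves, 6.29 FPKM in acclimated leaves, 8.14 FPKM in leaves frozen alone and 30.8 FPKM in the control. The median log2 ratio to control was -2.65 after both treatments, -2.08 after acclimation and -1.76 after freezing alone, where the product gave -4.24. The median departure was 1.42, and 116 (44.4%) were called above and 0 below, against 2.98% and 3.98% of all unigenes taken. Here the level after both was under both single levels in 165 unigenes (63.2%), as an order of levels without an interval. Of all unigenes taken, 31.6% had their lowest level in the acclimated and frozen library. The median log2 ratio of the level after both to the lower of the single levels was -0.22. Most of the 261 were thus lowest after the combination, but by a small margin and by less than the product gave.

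Where a unigene was called for acclimation and not for freezing alone, the level after both lay close to the acclimated level. First were the 2282 unigenes higher after acclimation and not called after freezing alone. Their median log2 ratio to control was 1.59 after both treatments, 1.85 after acclimation and 0.27 after freezing alone. Their median departure was -0.52, with 9 called above (0.394%) and 243 below (10.6%), against 2.98% and 3.98% of all unigenes taken. The level after both lay between the single levels in 1569 of the 2282 (68.8%). The 1685 unigenes lower after acclimation and not called after freezing alone had -1.80 after both, -1.89 after acclimation and -0.46 after freezing alone. Their median departure was 0.61, with 216 called above (12.8%) and 1 below (0.0593%).

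Unigenes called for freezing alone and not for acclimation are given by direction. The 972 unigenes higher after freezing alone and not called after acclimation had a median of 15.3 FPKM in acclimated and frozen leaves, 2.61 FPKM in acclimated leaves, 18.4 FPKM in leaves frozen alone and 2.18 FPKM in the control. Scaled by TMM, the order of the medians was the other way for the combination and freezing alone. The median log2 ratio to control was 2.89 after both treatments, 0.41 after acclimation and 2.62 after freezing alone. The level after both exceeded both single levels in 561 of the 972 (57.7%). The median departure of these 972 was small, at -0.22, but the quartiles were -1.19 and 0.65. Of them, 43 were called above (4.42%) and 122 below (12.6%), against 2.98% and 3.98% of all unigenes taken. The 238 unigenes lower after freezing alone and not called after acclimation were less low after both treatments, with a median log2 ratio to control of -1.10 after both, -0.54 after acclimation and -1.75 after freezing alone. Their median departure was 1.14, and 85 were called above (35.7%) and 2 below (0.84%).

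Few unigenes answered to the treatments in opposite directions. For the 35 lower after acclimation and higher after freezing alone, the median log2 ratio to control was 1.25 after both, -2.47 after acclimation and 2.20 after freezing alone, so the combination came out nearer to freezing. For the 22 that acclimation alone left higher and freezing alone left lower it was 1.21 after both, 1.52 after acclimation and -1.51 after freezing alone, nearer to acclimation. In both groups the higher of the single levels was the nearer one. Among the 17719 unigenes called for neither treatment alone, 212 were called above and 212 below (1.2% each, against 2.98% and 3.98% of all unigenes taken).

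**Figure D4:**
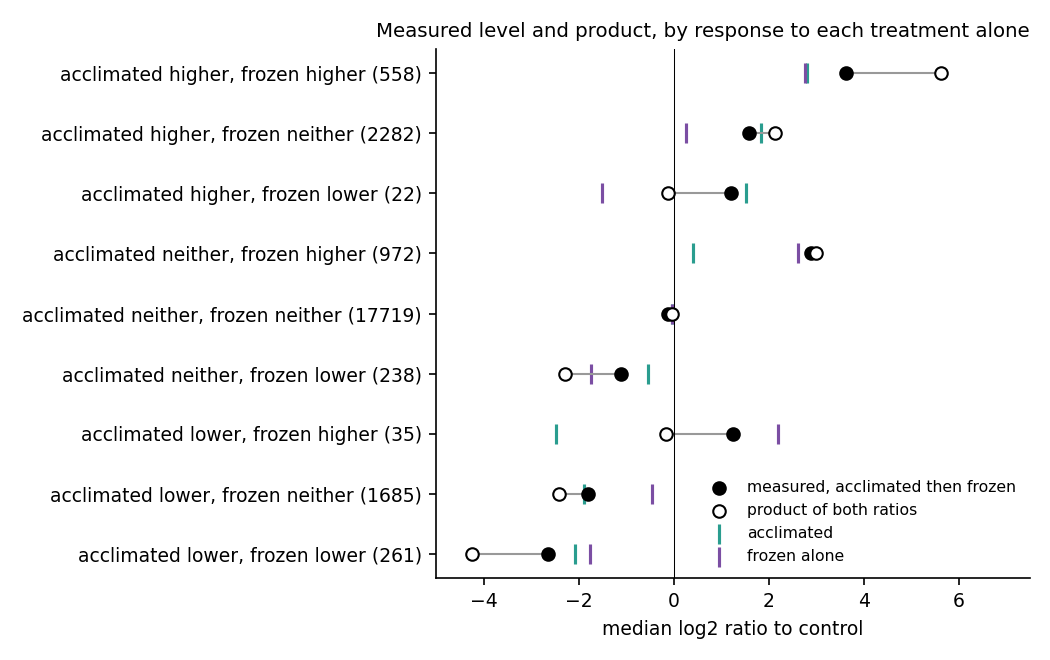
Median log2 ratio to control for 9 groups of unigenes set by the calls of acclimation alone and freezing alone (number of unigenes in parentheses): measured after acclimation and freezing (filled circles), predicted by the product (open circles), after acclimation (green ticks) and after freezing alone (purple ticks). For the 558 unigenes higher after each treatment the measured 3.62 falls short of the product of 5.64, and for the 261 lower after each the measured -2.65 is less low than the product of -4.24.

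Other simple predictions of the acclimated and frozen level were set beside the product. Over all unigenes the median absolute error was 0.44 (log2) for the product, 0.365 for the larger of the single changes taken alone, 0.364 for the acclimated level itself, 0.616 for the level after freezing alone and 0.784 for the control level. The product is built from 3 libraries and carries more counting error, which alone would give a median absolute error of 0.164, against 0.116 for the acclimated level. An unmeasured spread between libraries would likewise enter the product's error through 4 libraries and that of the acclimated level through 2, so the order of these errors is a description and does not show that the product held less well. For the 558 unigenes higher after each treatment the errors were 2.22 for the product, 0.768 for the sum of both changes in level (acclimated plus frozen alone minus control) and 0.785 for the larger change. The signed errors had a median of -0.23 for the sum and 0.16 for the larger change. Within 2-fold of the sum lay 62.0% of these unigenes, and 63.4% within 2-fold of the larger change, against 16.3% for the product. The sum did not do better throughout. Over all unigenes its error was 0.46, with 76.4% within 2-fold, against 80.5% for the product. For the 261 unigenes lower after each treatment the errors were 1.42 for the product, 1 for the sum and 0.534 for the larger change. There 27.6% lay within 2-fold of the product and 1.53% within 2-fold of the sum. Sums under a floor taken from the lowest level were set to that floor. As the 558 and the 261 were chosen from libraries that enter the predictions, their errors are descriptions too.

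How a departure is judged depends on this choice between product and sum. Measured from the sum, 625 unigenes were above (2.82%) and 679 below (3.06%), by an interval wholly beyond 2-fold, among the 22199 whose sum was over 0. Of the 946 unigenes below the product, 498 were also below the sum, 5 were above it and 443 were neither. Of the 708 above the product, 244 were also above the sum and none were below it, 154 were neither, and for 310 the sum was 0 or less, so that no comparison could be made. By counting error alone, the 498 and the 244 lay beyond 2-fold of both the product and the sum. No spread between libraries was assumed for the sum.

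In 41 unigenes the freezing ratio had opposite directions in the acclimated and the unacclimated state, with the exact interval of both ratios beyond 2-fold. In 35 of them freezing gave a lower level after acclimation and a higher one without (0.147%). These had a median of 6.06 FPKM in acclimated and frozen leaves, 24.1 FPKM in acclimated leaves, 21.4 FPKM in leaves frozen alone and 2.52 FPKM in the control, and a median departure of -4.80. In 6 freezing gave a higher level after acclimation and a lower one without (0.0252%), with medians of 10.6 FPKM in acclimated and frozen leaves, 3.04 FPKM in acclimated leaves, 16.7 FPKM in leaves frozen alone and 41.4 FPKM in the control. This count was 10 with median-of-ratios and 11 with upper-quartile factors. The acclimation ratio likewise turned round in 64 unigenes, 15 of which also had opposite freezing ratios. In 48 it was lower in frozen leaves and higher in unfrozen ones (0.202%), with medians of 5.91 FPKM in acclimated and frozen leaves, 16.6 FPKM in acclimated leaves, 32.0 FPKM in leaves frozen alone and 2.45 FPKM in the control. In 16 it was higher in frozen leaves and lower in unfrozen ones (0.0673%), with medians of 31.1 FPKM in acclimated and frozen leaves, 9.85 FPKM in acclimated leaves, 6.99 FPKM in leaves frozen alone and 48.5 FPKM in the control. That count was 9 with total counts.

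The unigene with the departure farthest above, by the bound of its interval nearest to 0, was c100903.graph_c0, of 1381 bases as implied by its FPKM. It had 233 counts (12.0 FPKM) in acclimated and frozen leaves, 2 counts (0.0954 FPKM) in acclimated leaves, 646 counts (32.6 FPKM) in leaves frozen alone and 771 counts (35.4 FPKM) in the control. It was nearly lost at 4 °C and present in the 3 other libraries. The departure was 7.01 (95% interval 5.21 to 8.82), and its size rests on the 2 counts in acclimated leaves. It was made up of a log2 freezing ratio of 6.73 after acclimation (5.18 to 10.1) against -0.28 without it.

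The most abundant unigene above the product was c106657.graph_c1, of 1041 bases. It had 195663 counts (13403 FPKM) in acclimated and frozen leaves, 260406 counts (16481 FPKM) in acclimated leaves, 130378 counts (8731 FPKM) in leaves frozen alone and 583366 counts (35513 FPKM) in the control. It was highest in the control and lowest after freezing alone. The departure of 1.96 (1.95 to 1.97) was made up of a log2 freezing ratio of -0.23 after acclimation and -2.19 without it.

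The unigene farthest below was c109244.graph_c0, of 1884 bases. It had 54 counts (2.04 FPKM) in acclimated and frozen leaves, 483 counts (16.9 FPKM) in acclimated leaves, 591 counts (21.9 FPKM) in leaves frozen alone and 2 counts (0.0673 FPKM) in the control. It was high after either treatment, lower after both and lowest in the control. The departure was -10.82 (-12.66 to -8.99), and its size rests on the 2 control counts, while the log2 freezing ratio of -2.96 after acclimation (-3.41 to -2.57) does not use them.

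The most abundant unigene below the product was c81650.graph_c0, of 817 bases. It had 26162 counts (2283 FPKM) in acclimated and frozen leaves, 66641 counts (5374 FPKM) in acclimated leaves, 100051 counts (8536 FPKM) in leaves frozen alone and 75014 counts (5818 FPKM) in the control. It was near the control after acclimation, above it after freezing alone and lowest after both. The departure was -1.55 (-1.58 to -1.53), with log2 freezing ratios of -1.16 after acclimation and 0.39 without it.

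**Figure D5:**
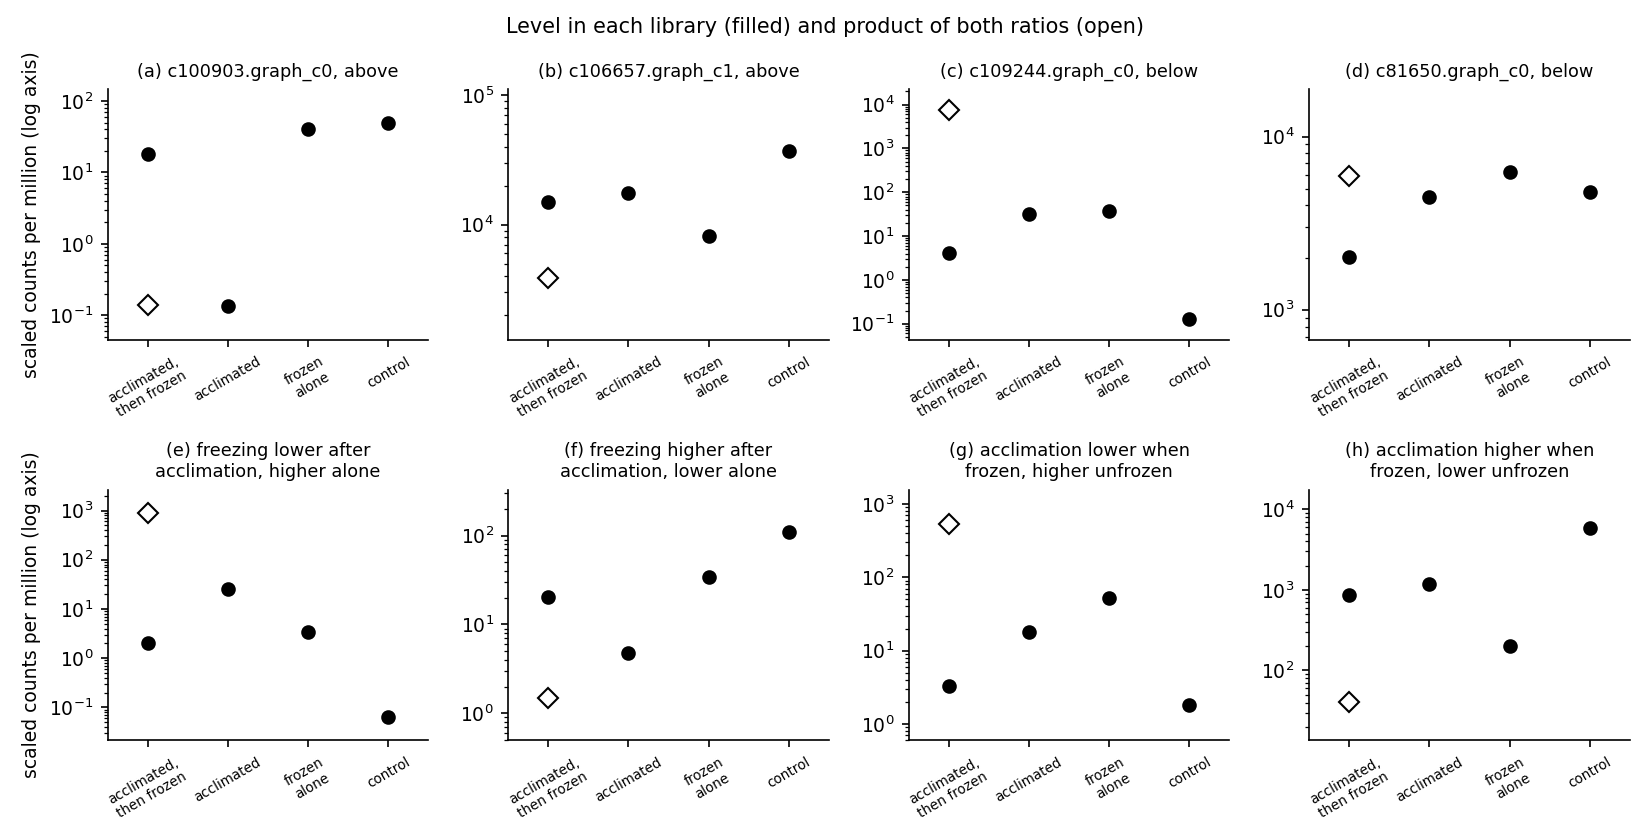
Scaled CPM (log axis) in each library (filled circles) and the level that the product gives for acclimated and frozen leaves (open diamonds, with a prior count of 0.5) for the 4 identified unigenes and for 1 unigene of each kind of turned effect. In panel (a) the measured 17.9 lies over the product of 0.139, and in panel (c) the measured 4.15 lies under the product of 7585.

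Called unigenes spanned the range of abundance and length. Their median mean level over the 4 libraries was 14.6 FPKM above and 12.6 FPKM below, against 10.3 FPKM for all, and their implied median length was 1104 bases above and 1225 bases below, against 1137 for all. Abundant unigenes were called more often, since 80 (7.85%) above and 73 (7.16%) below were found among the 1019 whose mean was at least 100 FPKM, against 260 (2.25%) and 411 (3.55%) at 1 to 10 FPKM. Deeper counts make narrower intervals, so part of this is built into the rule. Counted without intervals, departures of at least 2-fold were found for 8.93% above and 7.75% below at 100 FPKM or more, for 6.34% and 7.13% at 10 to 100 FPKM, and for 9.99% and 15.4% at 1 to 10 FPKM, where the median counting standard error was 0.40. The spread of departures at 100 FPKM or more, an interquartile range of 0.78, stood beside a counting standard error of 0.06. In the most abundant class, then, counting error is a small part of the spread, and how much is due to the spread between plants was not tested.

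Unigenes of one assembly component can be near copies that share reads. Among the unigenes taken, 2303 lay in 1114 components with several members. In 33 components more than 1 unigene was called, 66 in all, and in 31 of them all called unigenes departed in the same direction. Such unigenes are not separate observations.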

How the data were processed

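RNA-seq of chrysanthemum leaves was analysed in 4 libraries, 1 per treatment. Per the file headers, the table deposited by the authors gives a count and an FPKM per unigene and library; the counts are raw, and the FPKM deposited by the authors served as levels only. Bowtie 0.12.2, Cufflinks and the mouse build mm8 are named per the submitters' processing notes, with no role. The assembler, counting rule and strand use are not given in sources used here. The unigene length was taken from count and FPKM.

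Departures were log2 differences of counts plus a prior of 0.5, scaled by TMM (edgeR 4.0.16, R 4.3.3), with a 95% interval by the delta method. Single ratios had exact Clopper-Pearson intervals (scipy 1.17.1). No test was made, since 1 library per treatment leaves no residual degree of freedom for an interaction. The departure, its interval and its 2-fold call were tested on simulated counts with counting error only and the TMM factors taken as known. The other steps were not tested in this way. Molecular identifiers are not mentioned, and intervals cover counting error only. Alternatives were other scalings (median-of-ratios from DESeq2 1.42.0), limits, filters and priors, an assumed spread, and a sum in place of the product.

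Unigenes shown are, per direction, the one whose bound lies farthest from 0 and the most abundant other one called, and 1 per kind of turned effect, by its bounds. Members, rule and alternatives were chosen with earlier results of these data known. No gene list was used, as unigenes carry no gene names.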

Additional observations from a re-analysis of the deposited data

Results flagged for a closer look

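Unigenes whose ratio ran in opposite directions in the 2 states of the other treatment were marked for a second look. These differences were not tested, as there is 1 library per treatment. They were counted only where the exact interval of both ratios lay wholly beyond 2-fold. By this rule the freezing ratio was lower than 1 after acclimation and higher than 1 without it in 35 unigenes (0.147%). It ran the other way in 6 (0.0252%). By the same rule the acclimation ratio was lower than 1 in frozen leaves and higher than 1 in unfrozen ones in 48 (0.202%). It ran the other way in 16 (0.0673%).

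The clearest of each kind, by the smaller of its bounds, had the following counts. The first, with freezing lower after acclimation and higher alone, had 27 counts in acclimated and frozen leaves, 377 in acclimated leaves, 53 in leaves frozen alone and 1 in the control, and a departure of -8.72 (95% counting interval -11.13 to -6.32), which rests on the single control count. The second, with freezing higher after acclimation and lower alone, had 263, 70, 551 and 1724 counts in the same order of libraries, and a departure of 3.76 (3.36 to 4.16). It was highest in the control and lowest after acclimation. The third, with acclimation lower when frozen and higher unfrozen, had 43, 268, 838 and 28 counts, and a departure of -7.29 (-8.00 to -6.58). It was high after either treatment alone, lower after both and lowest in the control. The fourth, with acclimation higher when frozen and lower unfrozen, had 11101, 17464, 3234 and 91918 counts, and a departure of 4.39 (4.33 to 4.45). It was among the abundant transcripts of control leaves, at 7261 FPKM there, and was lowest after freezing alone.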

How the results depend on the processing

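The share of calls below the product was 57.2% with TMM, 73.9% with total counts, 49.3% with median-of-ratios factors, 50.1% after centring, 52.1% measured from the sum and 68.3% beyond 4-fold. With an assumed spread of 20% between libraries the counts were 221 above and 393 below (64.0% below), and with 40% they were 55 and 149 (73.0% below). With an interval that only excluded no departure they were 4754 above and 6520 below, beyond 4-fold 126 and 271, and among the 13839 unigenes with 500 or more counts 467 and 591. The median departure of -0.09 was -0.32 with total counts and 0.01 with median-of-ratios factors. For unigenes higher after each treatment alone it was -1.92 with 500 or more counts and -2.05 with a prior of 2, against -2.22. The freezing effect higher after acclimation and lower without was found in 10 unigenes with median-of-ratios and 11 with upper-quartile factors, and the acclimation effect higher when frozen and lower unfrozen in 9 with total counts. With 1000 or more counts the median absolute errors were 0.325 (product), 0.253 (acclimated level) and 0.263 (larger change).

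Setting counts of 0 to 3 and keeping components with 1 unigene only were chosen after seeing the data. No paired analysis was possible because there is 1 library per treatment, and no library was left out. With no filter on counts 975 unigenes were above and 1306 below, so some under 100 counts also met the limit; they are not described here.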
